A study of Mus musculus with 24 samples.

Results

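The members described here are 3 TaqMan assays for the muscle microRNAs (miRNAs) miR-1 and miR-133a: mmu-miR-1 and rno-miR-1, the mouse and the rat assay of miR-1, and mmu-miR-133a. They were taken by assay name from 584 miRNA assays on real-time PCR cards, and all 3 lay on the card of type A, so each array of that card measured them side by side. Both miR-1 assays were kept apart, because the files give no primer sequences. The RNA was total RNA of muscle stem cells, which repair skeletal muscle after damage, from male C57BL/6 mice aged 8 weeks. Quiescent stem cells (QSC) formed the 0 h group, and activated stem cells (ASC) were harvested 36, 60 and 72 h after muscle injury; no other treatment and no engineered allele is named in the labels. Each of the 4 groups had 3 arrays of card A and 3 of card B, 24 arrays in all. The series calls its replicates technical, so every p-value and every ± below measures technical spread, not the spread between mice.

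miR-1 and miR-133a are known from work in mouse and other vertebrates as miRNAs of skeletal and heart muscle. They are processed from shared primary transcripts that the myogenic factors MyoD and myogenin and the factors SRF and MEF2 activate. In cultured mouse myoblasts miR-1 is reported to favour differentiation, in part through its target Hdac4, while miR-133a is reported to favour proliferation through its target Srf. miR-206 belongs to the seed family of miR-1 and miR-133b to that of miR-133a, and this second pair is largely restricted to skeletal muscle and its stem cells.

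Mature sequences and gene positions were taken from RefSeq, build GRCm38.p6. The relatives miR-206 and miR-133b are shown because they carry the seeds of the families to which miR-1 and miR-133a belong, and miR-31, miR-182 and miR-322 because they are among the 5 assays whose levels, normalized to U6, were most like those of both rno-miR-1 and miR-133a. Each is written 5′ to 3′ with its seed (bases 2 to 8) in capitals, and the 5 seeds all differ. The first pair lies at chr1:20679055-20679076 and chr1:20682834-20682855 on the plus strand, and the others at chr4:88910614-88910635, chr6:30165962-30165986 and chrX:53054306-53054327 on the minus strand.
mmu-miR-206-3p: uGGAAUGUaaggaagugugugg
mmu-miR-133b-3p: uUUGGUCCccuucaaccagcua
mmu-miR-31-5p: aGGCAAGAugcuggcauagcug
mmu-miR-182-5p: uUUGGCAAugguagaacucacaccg
mmu-miR-322-5p: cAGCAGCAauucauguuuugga

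The locus of the members looked up here is annotated with a host gene, and other loci of the members were not searched. The lncRNA Mir1a-1hg (chr2:180385604-180401802, plus strand) spans 16199 bases and contains Mir1a-1 (chr2:180389048-180389124), 3444 bases after the start of the host, and Mir133a-2 (chr2:180398379-180398482), 12775 bases after it. The hairpins of miR-1 and miR-133a are 9254 bases apart there, and those of miR-206 (Mir206, chr1:20679010-20679082) and miR-133b (Mir133b, chr1:20682769-20682887) are 3686 bases apart. An assay of a mature miRNA does not tell which locus it came from. The promoter of the host (chr2:180385354-180385653, plus strand, 300 bases around its annotated start) is printed because it is the start of a transcript that carries both miRNAs, with E-boxes (CANNTG, the motif bound by MyoD and related factors) in capitals.
Mir1a-1hg promoter: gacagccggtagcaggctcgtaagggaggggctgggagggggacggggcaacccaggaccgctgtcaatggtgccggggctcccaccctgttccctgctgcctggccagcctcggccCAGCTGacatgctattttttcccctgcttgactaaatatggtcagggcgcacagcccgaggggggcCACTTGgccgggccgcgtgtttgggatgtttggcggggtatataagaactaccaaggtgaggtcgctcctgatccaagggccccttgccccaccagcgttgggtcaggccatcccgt

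This window holds 2 E-boxes, at positions -133 to -128 and -67 to -62 from the start. An E-box on either strand occurs in 72.3% of 32851 promoter windows of the same length. The first of them has the core CAGCTG, which occurs in 16.3% of the windows. CATTCC, the site of TEAD factors, had no match on either strand (14.7% of windows). Nor had the MEF2 site, searched as YTAWWWWTAR (3.19%), or the SRF CArG box, searched as CCWWWWWWGG (1.63%). Here W is A or T, Y is C or T and R is A or G. Sequences that differ from these letters at any base were not counted. The GC content of the window was 64.3%, against a median of 52.7% over all windows. These matches describe the sequence and say nothing about binding in these cells.

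An array reports a threshold cycle (Ct), the PCR cycle at which the signal of a spot crosses a threshold, so a Ct that is lower by 1 stands for about double the RNA. mmu-miR-133a had the lowest Ct of the 3 assays. Its Ct was 25.52, 25.48 and 25.58 at 0 h, 23.12, 23.09 and 23.13 at 36 h, 23.29, 23.48 and 23.29 at 60 h, and 21.99, 22.18 and 22.03 at 72 h. rno-miR-1 gave 28.32, 28.33 and 28.16 at 0 h, 25.53, 25.67 and 25.57 at 36 h, 25.87, 25.88 and 25.70 at 60 h, and 25.15, 25.30 and 25.15 at 72 h. mmu-miR-1 gave 30.51, 30.49 and 31.37 at 0 h, 27.40, 27.29 and 27.30 at 36 h, 29.41, 29.19 and 28.73 at 60 h, and 28.03, 28.09 and 27.80 at 72 h. All 36 values lie below the detection limit of Ct 35 used here, and every array of activated cells had a lower Ct than every array of quiescent cells for each of the 3 assays.

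A level is given below as log2, with the Ct of an assay subtracted from the mean Ct of the 4 spots of U6 small nuclear RNA on the same array, so more RNA gives a higher level. Assays can differ in efficiency, so the distance between the levels of different assays is not a ratio of molecules. In bulk RNA such as this, fewer cells that contain a miRNA and less of it per cell cannot be told apart.

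All 3 assays were higher in activated than in quiescent cells at each of the 3 times. The level of mmu-miR-133a was -10.17, -10.07 and -10.21 at 0 h, -8.26, -8.22 and -8.21 at 36 h, -7.88, -8.11 and -7.89 at 60 h, and -6.87, -6.97 and -7.02 at 72 h. The 0 h arrays lay below all others and the 72 h arrays above all others, and the 36 and 60 h arrays did not overlap but lay within 0.4 of each other. The level of rno-miR-1 was -12.98, -12.92 and -12.78 at 0 h, -10.68, -10.80 and -10.65 at 36 h, -10.46, -10.51 and -10.30 at 60 h, and -10.03, -10.09 and -10.13 at 72 h. Its 4 groups followed each other in order of time with no overlap, most of the distance lying between 0 and 36 h. The level of mmu-miR-1 was -15.17, -15.09 and -15.99 at 0 h, -12.54, -12.41 and -12.38 at 36 h, -14.00, -13.82 and -13.33 at 60 h, and -12.91, -12.88 and -12.78 at 72 h. On this assay the 36 h arrays were the highest and the 60 h arrays lay between those of 0 and 72 h. For each assay an exact permutation test over the 4 times gave p = 6.49e-05, the smallest that 369600 assignments of 12 arrays can give.

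**Figure D1:**
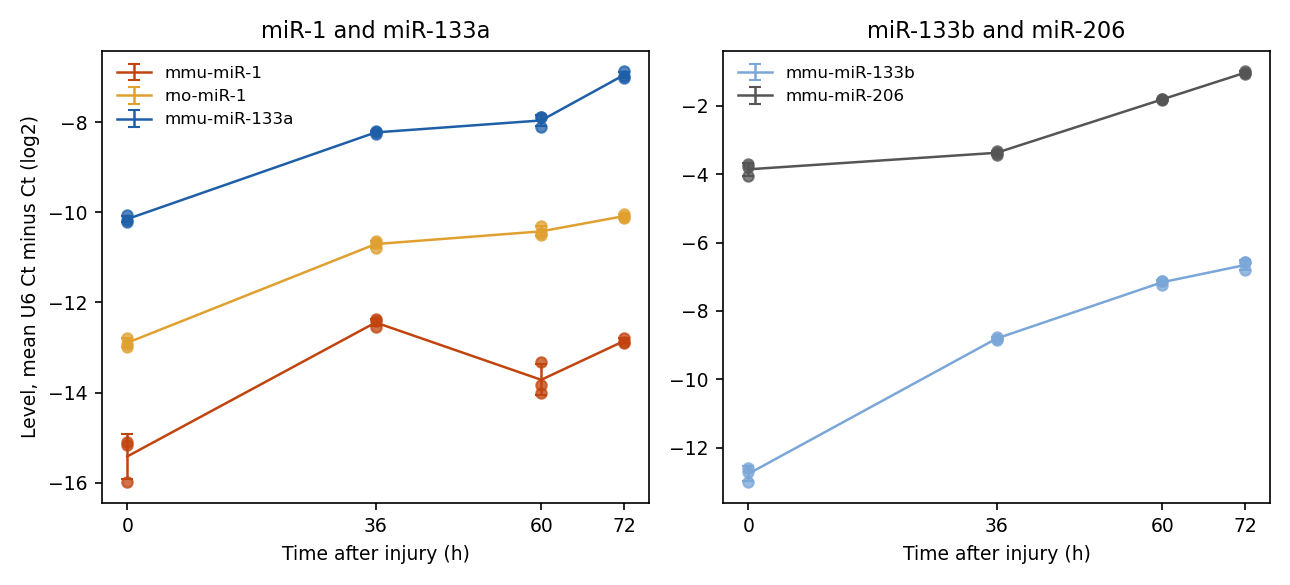
Level (mean U6 Ct minus Ct, log2) against time after injury in hours. Points are single arrays, lines join group means and bars are the SD over 3 arrays. The left panel holds the 3 assays of miR-1 and miR-133a, with mmu-miR-1 lower at 60 h (mean -13.72) than at 36 h (mean -12.45), and the right panel holds miR-133b and miR-206, which were at their highest mean at 72 h.

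Changes were tested with limma in a fit over all assays of a card, and a call required a 2-fold change or more together with an adjusted p under 0.05. At 36 h, 3 of the 3 members were called higher than at 0 h, where 44.1% of 272 tested assays were called higher and 12.1% lower. miR-133a averaged -8.23 ± 0.03 at 36 h and -10.15 ± 0.07 at 0 h (SD, n = 3 each), a 3.79-fold rise (limma log2 change 1.92, SE 0.07, adjusted p = 3.92e-09). miR-1 rose 4.56-fold on the rat assay (log2 2.19, SE 0.08, limma adjusted p = 1.86e-09) and 7.85-fold on the mouse assay (2.97, SE 0.24, limma adjusted p = 1.26e-06). With U6 most assays moved upwards at 36 h, with a median log2 change of 0.82. Among the 272 the members stood at rank 36 (mmu-miR-1), 56 (rno-miR-1) and 72 (mmu-miR-133a) from the top. With the mean of all steadily detected assays as normalizer instead of U6, the calls of rno-miR-1 (log2 0.90) and miR-133a (0.63) did not reach 2-fold. The median of all tested assays was then -0.36.

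At 60 h, 3 of the 3 members were again called higher than at 0 h, where 28.0% of 250 tested assays were called higher and 36.4% lower. miR-133a averaged -7.96 ± 0.13 at 60 h, a 4.56-fold rise over 0 h (log2 2.19, SE 0.07, limma adjusted p = 9.79e-10). miR-1 rose 5.55-fold on the rat assay (log2 2.47, SE 0.08, limma adjusted p = 5.09e-10) and 3.25-fold on the mouse assay (1.70, SE 0.24, limma adjusted p = 6.99e-05). With U6 the median of all tested assays was now below 0, at -0.37, but it was 2.08 with snoRNA202. rno-miR-1 stood at rank 32, mmu-miR-133a at 34 and mmu-miR-1 at 52 of the 250.

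At 72 h the 3 members were called higher once more, where 20.9% of 244 tested assays were called higher and 45.9% lower. miR-133a averaged -6.95 ± 0.07 at 72 h, a 9.17-fold rise over 0 h (log2 3.20, SE 0.07, limma adjusted p = 4.02e-11). miR-1 rose 7.01-fold on the rat assay (log2 2.81, SE 0.08, limma adjusted p = 1.30e-10) and 5.90-fold on the mouse assay (2.56, SE 0.24, limma adjusted p = 2.63e-06). While the median of all tested assays was -0.77, the members stood at rank 18 (mmu-miR-133a), 21 (rno-miR-1) and 25 (mmu-miR-1) of the 244.

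The authors' deposited table, whose header names days 1.5, 2.5 and 3.5, gives average folds against day 0 of 3.79, 4.57 and 9.19 for mmu-miR-133a. The authors' deposited table gives 4.57, 5.55 and 7.02 for rno-miR-1, and 8.22, 3.66 and 6.33 for mmu-miR-1. Its last time is named day 3.5 where the labels say 72 h, but its Ct values of day 3.5 equal those of the 72 h arrays. The limma folds at 72 h were 9.17 for mmu-miR-133a, 7.01 for rno-miR-1 and 5.90 for mmu-miR-1.

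**Figure D2:**
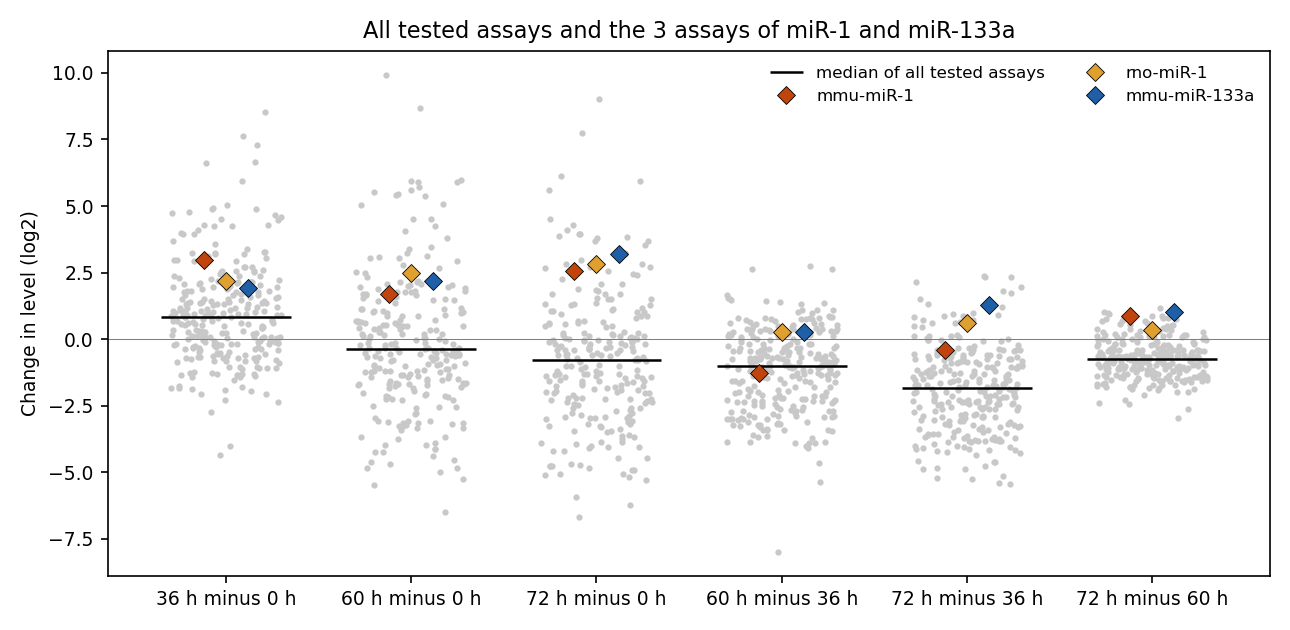
Change in level (log2) of every tested assay in 6 comparisons, later time minus earlier time. Grey points are assays, spread sideways for legibility, black lines are the medians of all tested assays, and diamonds are the 3 members. The members lie above the median in all comparisons except mmu-miR-1 at 60 h minus 36 h, where its change was -1.27 and the median -1.02.

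Within activation the members differed. Between 36 and 60 h, when 5.38% of 279 tested assays were called higher and 49.5% lower, 0 of the 3 members was called higher and 1 lower. The log2 change was 0.27 for miR-133a (SE 0.07, limma adjusted p = 0.00818) and 0.28 for rno-miR-1 (SE 0.08, limma adjusted p = 0.00696), both short of 2-fold with U6. Both were called higher with snoRNA202 (1.79 for miR-133a and 1.81 for rno-miR-1) and with the global mean (1.71 and 1.73). mmu-miR-1 fell by 1.27 (SE 0.24, limma adjusted p = 0.000675), close to the median of all assays at -1.02. Its direction turned with another normalizer: the change was 0.26 with snoRNA202 and 0.18 with the global mean of assays.

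miR-133a was higher at 72 than at 60 h. Its level averaged -6.95 ± 0.07 at 72 h and -7.96 ± 0.13 at 60 h (SD, n = 3 each), a 2.01-fold difference (log2 1.01, SE 0.07, limma adjusted p = 1.17e-06). It was 1 of the 2 assays called higher among 265 (0.755%), where 35.8% were called lower, and stood at rank 2. The change lies at the edge of the 2-fold limit: it was 0.93 without replicate 2 of the 60 h group and 0.97 without replicate 1 of the 72 h group, and then not called. mmu-miR-1 had a log2 change of 0.86 (SE 0.24, limma adjusted p = 0.00804, rank 6), which was 1.05 and called without replicate 3 of the 60 h group. rno-miR-1 had 0.34 (SE 0.08, limma adjusted p = 0.00284, rank 26), and with U6 neither miR-1 assay passed 2-fold when all arrays were used. With the same arrays mmu-miR-1 was called with snoRNA202 (1.50), snoRNA135 (1.39) and the global mean (1.73), and rno-miR-1 with the global mean (1.21).

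Over the whole span between 36 and 72 h, miR-133a rose 2.42-fold (log2 1.27, SE 0.07, limma adjusted p = 6.04e-08, rank 10 of 270). With U6 it was the only member among the 4.07% of assays called higher in this comparison, where 69.3% were called lower and the median change was -1.82. The log2 change was 0.62 for rno-miR-1 (SE 0.08, limma adjusted p = 2.69e-05) and -0.41 for mmu-miR-1 (SE 0.24, limma adjusted p = 0.124), and neither was called. rno-miR-1 was called higher with the 3 other normalizers, at 2.79 with snoRNA202, 1.27 with snoRNA135 and 2.94 with the global mean. The sign for mmu-miR-1 turned with 3 other normalizers, to 0.24 with snoRNA135, 1.76 with snoRNA202 and 1.91 with the global mean.

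The normalizer sets the size of these changes. On card A, snoRNA202 relative to U6 was lower than at 0 h by log2 values of -0.88 at 36 h, -2.40 at 60 h and -3.05 at 72 h, and snoRNA135 by -0.22, -0.34 and -0.87. The 72 h rise of miR-133a over 0 h was 3.20 with U6, 4.06 with snoRNA135, 6.24 with snoRNA202 and 4.23 with the global mean. The rise of rno-miR-1 at 72 h was 2.81, 3.68, 5.86 and 3.84 with the same normalizers in that order, and that of mmu-miR-1 was 2.56, 3.43, 5.61 and 3.59. All 3 members were called higher at 60 and 72 h with each of the 4 normalizers. The median of all tested assays at 72 h moved with them: it was -0.77 with U6, -0.17 with snoRNA135, 2.04 with snoRNA202 and -0.10 with the global mean.

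**Figure D3:**
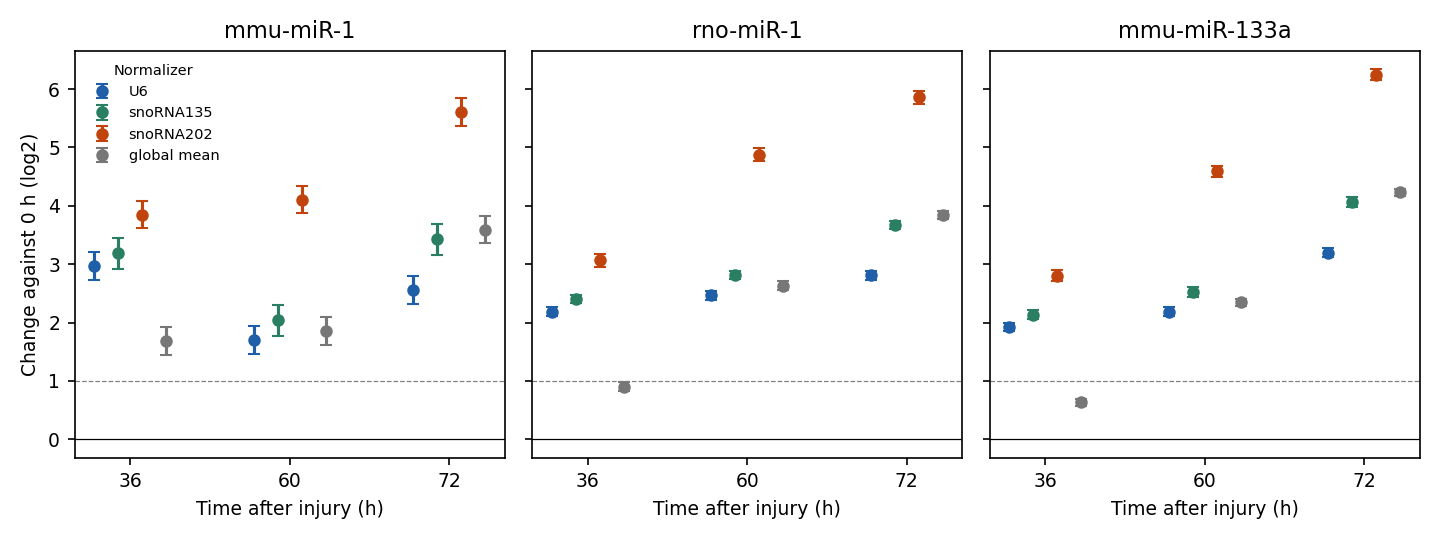
Change in level against 0 h (log2) of each member at 36, 60 and 72 h with 4 normalizers. Bars are the SE from limma (n = 3 arrays per group), the dashed line is a 2-fold rise and the solid line no change. All points lie above 0; rno-miR-1 at 0.90 and mmu-miR-133a at 0.63 with the global mean at 36 h are the points below the dashed line.

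A difference between 2 assays of the same array does not depend on the normalizer. Of 6 such differences among the members and miR-133b, all varied over the 4 times by an exact permutation test, with p-values adjusted over the 6 from 0.000389 to 0.00487. They are the pairs of only 4 assays, and some follow from others, so they are not 6 separate results. A test of 3 arrays against 3 cannot give a p below 0.10, so single pairs of times are given by their values.

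The distance between miR-133a and miR-1 on the rat assay was widest at 72 h. miR-133a minus rno-miR-1 was 2.81, 2.85 and 2.57 at 0 h, 2.42, 2.58 and 2.44 at 36 h, 2.57, 2.40 and 2.41 at 60 h, and 3.16, 3.12 and 3.11 at 72 h. The 72 h arrays lay above all others, and the 36 and 60 h arrays overlapped (exact permutation p over the 4 times = 0.00123, adjusted 0.00184). The change between 60 and 72 h was larger by 0.67 (log2) for miR-133a than for rno-miR-1 (95% interval 0.46 to 0.88). Against the mouse assay, miR-133a minus mmu-miR-1 was 6.03, 5.91 and 5.77 at 72 h and 6.12, 5.71 and 5.44 at 60 h, which overlapped. Between these times the change of miR-133a exceeded that of mmu-miR-1 by 0.15, with an interval of -0.34 to 0.64. The intervals take both fits as independent and use a normal approximation, which is narrower than the t distribution of limma.

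The assays of miR-1 did not move in parallel. mmu-miR-1 minus rno-miR-1 was -2.19, -2.17 and -3.21 at 0 h, -1.87, -1.62 and -1.73 at 36 h, -3.54, -3.31 and -3.03 at 60 h, and -2.87, -2.79 and -2.65 at 72 h. The 36 h arrays lay above and the 60 h arrays below those of 72 h, and the 0 h arrays spread most, with replicate 3 the lowest (exact permutation p = 0.00487, adjusted 0.00487). Against 0 h the mouse assay changed by 0.78 more than the rat assay at 36 h (95% interval 0.30 to 1.27), with no overlap of arrays. At 60 h it changed by -0.77 relative to the rat assay (-1.26 to -0.28), but the 60 h arrays overlapped those of 0 h. At 72 h the difference was -0.25, with an interval of -0.74 to 0.24. Without replicate 3 of the 0 h group these values were 0.44 at 36 h, -1.11 at 60 h and -0.59 at 72 h. Without replicate 1 or replicate 2 of that group the 72 h value was -0.09 or -0.07. The mouse assay had the higher Ct on every array and the wider spread at 0 h (SD 0.50, against 0.10 on the rat assay) and at 60 h (SD 0.35, against 0.11). Whether its lower signal has a part in the 60 h dip was not tested.

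**Figure D4:**
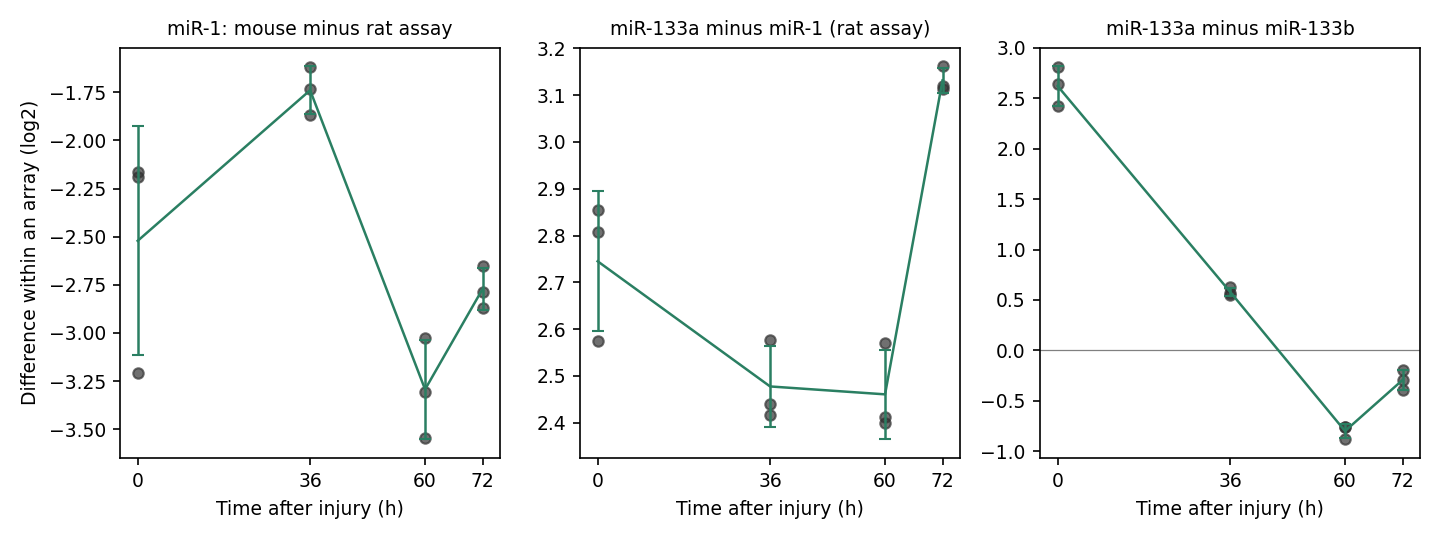
Difference in level between 2 assays of the same array (log2) against time after injury in hours. Points are arrays, lines join group means and bars are the SD over 3 arrays. The panels show mmu-miR-1 minus rno-miR-1, lowest at 60 h (mean -3.29), mmu-miR-133a minus rno-miR-1, highest at 72 h (mean 3.13), and mmu-miR-133a minus mmu-miR-133b, which is 2.62 at 0 h and -0.80 at 60 h; the vertical scales differ.

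The seed-family relatives rose too, with other time courses. Primer sequences were not given, and whether an assay also detected its seed-family relative was not tested. miR-133b, transcribed with miR-206, had levels of -12.59, -12.71 and -13.02 at 0 h, -8.83, -8.84 and -8.76 at 36 h, -7.13, -7.23 and -7.13 at 60 h, and -6.58, -6.58 and -6.82 at 72 h. Its groups did not overlap and followed the order of time, with limma log2 changes against 0 h of 3.96 at 36 h, 5.61 at 60 h and 6.11 at 72 h. miR-133a minus miR-133b was 2.42, 2.64 and 2.81 at 0 h, 0.57, 0.63 and 0.55 at 36 h, -0.76, -0.88 and -0.76 at 60 h, and -0.29, -0.39 and -0.20 at 72 h. The 0 h arrays lay above and the 60 h arrays below all others (exact permutation p = 6.49e-05, adjusted 0.000389). Like it, rno-miR-1 minus miR-133b was lower at each later time than at 0 h, with group means of -0.12 (0 h), -1.90 (36 h), -3.26 (60 h) and -3.43 (72 h; exact permutation p = 0.00013, adjusted 0.00039). Between 60 and 72 h the courses differed: miR-133a minus miR-133b rose by 0.51 with no overlap, while rno-miR-1 minus miR-133b changed by -0.17 with overlapping arrays.

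miR-206, of the seed family of miR-1, was measured on card B. Its level was -4.06, -3.80 and -3.71 at 0 h, -3.43, -3.32 and -3.37 at 36 h, -1.83, -1.80 and -1.81 at 60 h, and -0.99, -1.03 and -1.07 at 72 h. Its change at 36 h against 0 h was 0.48 (SE 0.12, limma adjusted p = 0.00272) and not called with U6, while it was 1.59 and called with snoRNA202 and -0.29 with the global mean. At 60 and 72 h it was 2.05 and 2.83, both called. Assays of miR-206 and of the members lie on different cards, so they were not set against each other array by array.

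The assays of the passenger strands gave almost no signal. rno-miR-1*, the strand opposite miR-1, had no Ct on any of the 12 arrays of card B, and miR-133a* had a Ct on 1 of them, 37.18 in replicate 3 of the 72 h group, beyond the detection limit. The other assays of the muscle-enriched list were silent as well: miR-208 and miR-208b, whose genes lie in myosin heavy chain genes of heart and slow muscle, miR-499, which lies in another such gene, and miR-486, reported in differentiated muscle, had no Ct on any array. Of the 9 muscle-enriched assays on the cards, 5 were tested, namely the members, miR-133b and miR-206, whose values are given above. With U6, 4 were called higher by limma at 36 h and 5 at 60 and at 72 h, beside 44.1%, 28.0% and 20.9% of all tested assays. None was called lower, beside 12.1%, 36.4% and 45.9%. All 5 changes were above 0 each time with U6, but that of miR-206 at 36 h was -0.29 with the global mean. With U6 the median log2 changes of these 5 assays at 36, 60 and 72 h were 2.19, 2.19 and 2.83, beside medians of all tested assays of 0.82, -0.37 and -0.77.

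The list of miRNAs reported in myoblast differentiation, which acts on the same process as miR-1 and miR-133a, moved both ways. Of its 21 assays on the cards 16 were tested, all of them detected on all 12 arrays. At 0 h 16 were detected on all 3 arrays of the group, and at each later time 18. An assay with fewer than 2 detected replicates at 0 h could not be tested. Rises of such assays are therefore missing from the counts and medians below. At 36 h 8 were higher and 2 lower, beside 44.1% and 12.1% of all tested assays; at 60 h 7 were higher and 7 lower, beside 28.0% and 36.4%; and at 72 h 4 were higher and 9 lower, beside 20.9% and 45.9%. The median log2 changes of the list were 1.19, -0.07 and -1.39, beside 0.82, -0.37 and -0.77 for all tested assays. With snoRNA202 the 72 h counts of the list were 10 higher and 2 lower, beside 166 higher and 24 lower of all 244 tested assays. The largest rise each time was that of miR-31, reported in mouse muscle stem cells to block translation of Myf5, with 7.29 at 36 h, 9.93 at 60 h and 9.01 at 72 h. The largest fall was that of miR-489, a miRNA of quiescent muscle stem cells, with -1.40, -4.85 and -6.66 on the mouse assay at the same times. Its rat assay is on the list too, so with U6 the lower counts include miR-489 with both assays each time.

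Assays whose level resembled that of the members over the 12 arrays of card A were ranked by Pearson's r among 151 other assays detected on all of them. The arrays share their groups and the U6 values, so r describes a shared time course and no p is given. Nearest to rno-miR-1 were miR-133b (r = 0.98), miR-31 (0.98), miR-133a (0.97), miR-182 (0.96) and miR-322 (0.95). Nearest to miR-133a were rno-miR-1 (0.97), miR-133b (0.97), miR-31 (0.92), miR-182 (0.90) and miR-322 (0.87). The mouse assay of miR-1 had other neighbours with U6, with miR-142-3p (0.93), miR-467a (0.91), miR-350 (0.91), miR-322 (0.91) and miR-223 (0.90) nearest to it, and with rno-miR-1 at rank 8 (0.85) and miR-133a at rank 12 (0.82).

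These neighbours differed from the members in size. miR-182, of the miR-183 cluster, rose by log2 5.94 at 36 h, 8.69 at 60 h and 7.74 at 72 h, and miR-322, reported to promote cell cycle exit of mouse myoblasts, by 6.64, 5.96 and 5.96. miR-142-3p and miR-223, miRNAs of blood-derived cells, rose by 8.54 and 7.65 at 36 h and stood at 5.91 and 4.06 at 60 h and at 5.61 and 3.81 at 72 h. miR-350 rose by 4.26, 3.47 and 2.97 and miR-467a by 3.29, 2.80 and 2.42 at the 3 times, so that with U6 these 4 neighbours of mmu-miR-1 had their largest change at 36 h, as mmu-miR-1 had. With snoRNA202, snoRNA135 and the global mean the largest change of mmu-miR-1 was at 72 h. The neighbours changed with the normalizer. With the global mean the nearest assay was miR-484 for all 3 members, and miR-133b (r = 0.91), miR-133a (0.91) and rno-miR-1 (0.91) stood at ranks 3, 4 and 5 for mmu-miR-1. Of the 5 named with U6, 1 was again among the 5 nearest to mmu-miR-1 (miR-467a), and 2 each to rno-miR-1 and miR-133a, namely miR-133b and the other member; miR-31, miR-182 and miR-322 were then among the 5 nearest to none of them.

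Since the labels name no cell sort, the summed levels of marker lists are given beside the members, as log2 of the sum with U6 at 1. The muscle-enriched list lay between -4.04 and -3.69 at 0 h, -3.34 and -3.23 at 36 h, -1.77 and -1.74 at 60 h, and -1.02 and -0.93 at 72 h. Most of this sum was miR-206 of card B, whose level averaged -3.86, -3.37, -1.81 and -1.03 at these times. The sum therefore follows miR-206 and says little about the members. The endothelial list (both strands of miR-126) lay between -4.52 and -4.44 at 0 h, -2.29 and -2.28 at 36 h, -6.28 and -6.19 at 60 h, and -6.42 and -6.40 at 72 h. It was highest at 36 h and lowest at 72 h, while the muscle-enriched list was highest at 72 h.

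The leukocyte and mesenchymal lists also had their lowest sums at 72 h with U6. The leukocyte list lay between -5.45 and -5.41 at 0 h, -3.93 and -3.86 at 36 h, -6.80 and -6.64 at 60 h, and -7.70 and -7.56 at 72 h. Against 0 h, 3 of its 4 tested assays were higher at 36 h, 3 at 60 h and 2 at 72 h. Of all tested assays 44.1%, 28.0% and 20.9% were higher at these times. Only miR-150 was lower at 60 and 72 h (log2 -3.67 and -4.21). At these times miR-142-3p was above 0 h by 5.91 and 5.61, miR-223 by 4.06 and 3.81, and miR-155 by 1.91 and 0.22. The fall of the leukocyte sum was therefore not shared by most of its tested assays. The mesenchymal and smooth muscle list lay between -3.23 and -3.11 at 0 h, -2.76 and -2.70 at 36 h, -6.16 and -6.13 at 60 h, and -6.82 and -6.75 at 72 h. The sums of the endothelial, leukocyte and mesenchymal lists were highest at 36 h with U6, where mmu-miR-1 also had its highest level with U6 but not with the 3 other normalizers, and their part in that value was not tested. With U6 these sums were below 0 h at 60 and 72 h, where all 3 members were above 0 h. Relative to snoRNA202 the direction turned for the endothelial list (log2 0.63 at 60 h and 1.10 at 72 h against 0 h) and the leukocyte list (1.12 and 0.86), but not for the mesenchymal list (-0.57 and -0.56).

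The epithelial list lay between -9.22 and -9.05 at 0 h and between -12.25 and -12.04 at 72 h, and 3 of its 6 assays were detected on no array. Both assays of miR-489, the marker of quiescent muscle stem cells, form a list of their own. Their sum lay between -8.78 and -8.50 at 0 h and between -15.22 and -15.01 at 72 h. The lists were chosen with earlier results of these data known, so this fall does not test which cells the 0 h group held. The erythroid list had 1 assay on the cards, miR-451, which was not detected at 0 h. Its level lay between -14.07 and -12.99 on the 3 arrays at 36 h and between -18.79 and -16.07 on those at 60 h, and it was -19.66 on the only array that detected it at 72 h; its part in the members' values was not tested. The heart marker miR-208, a second source tissue of miR-1 and miR-133a, had no Ct on any array.

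**Figure D5:**
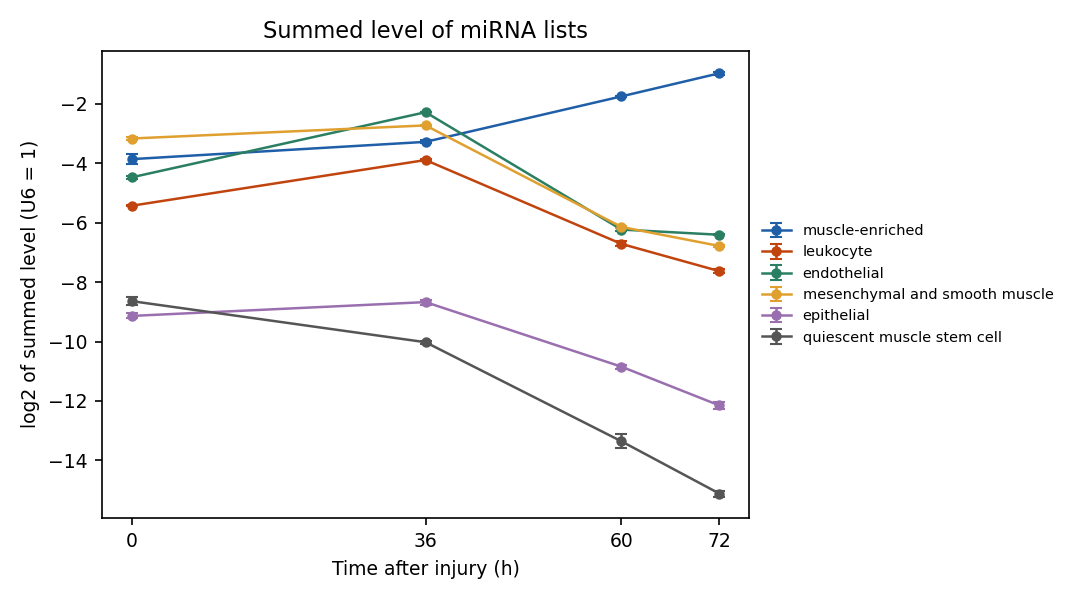
Log2 of the summed level of 6 miRNA lists (U6 = 1) against time after injury in hours. Points are midpoints and bars run between the lowest and the highest of 3 arrays. The sum of the muscle-enriched list is mostly miR-206 and is highest at 72 h (-1.02 to -0.93). The endothelial, leukocyte and mesenchymal lists are highest at 36 h, and the list of the quiescent muscle stem cell marker miR-489 at 0 h.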

How the data were processed

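Real-time PCR cards measured miRNAs in total RNA of muscle stem cells on 24 arrays. Each spot has a Ct in the single-array files, per the file headers; what software and threshold produced it was not given in the sources used. The authors also deposited a linear fold (a ratio against day 0, averaged over replicates); its header names day 3.5 where the labels say 72 h, the labels were followed, and 84 per-sample columns of the series tables were not used. Card type was read from each file's assay names. Card A holds 375 miRNA assays and card B 209, with 384 spots per array; 181 to 212 assays were detected (Ct below 35) per card A array.

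Levels (mean U6 Ct minus Ct) entered limma 3.58.1 (R 4.3.3) in a fit per card over 12 arrays, without a replicate block. Assays needed 2 detected replicates per group; p-values were adjusted by Benjamini-Hochberg over both cards. Within-array differences used exact, two-sided permutation tests. Scripts were tested on simulated data. Tried alternatives were the normalizer, the detection limit, the block, a variance trend, a fit over 2 groups and leaving out arrays. The members and lists were chosen with earlier results of these data known. Named are the members, their strands and relatives, the extremes of the differentiation list and the 5 most similar assays per member. Replicates of card A differed by a median of 0.0896 to 0.224 Ct, and no pair held identical values. The number of arrays limits the precision. Same-numbered arrays did not deviate together in general (r between -0.27 and 0.36 on card A, above 0.1 for 5 of 18 pairs; between -0.43 and 0.49 on card B, above 0.1 for 4 of 18, among them all 3 pairs of 0 and 60 h), so the numbers were not taken to pair arrays.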

Additional observations from a re-analysis of the deposited data

How the results depend on the processing

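Of 360 member values under alternatives, 339 kept direction and call, 12 gained a call, 4 lost it and 5 turned. Many of these values could not change in size, so the count is no measure of robustness. The detection limits, the block, the variance trend and the fit over 2 groups left each log2 change the same. So did leaving out an array of a group outside the comparison. All 5 turns came with another normalizer. All 9 rises over 0 h kept their direction; with the global mean, calls at 36 h were lost for rno-miR-1 (0.90) and miR-133a (0.63). For mmu-miR-1, 60 against 36 h turned with snoRNA202 (0.26) and the global mean (0.18), and 72 against 36 h with snoRNA202 (1.76), snoRNA135 (0.24) and the global mean (1.91). Gained calls were, with snoRNA202, snoRNA135 and the global mean in that order, mmu-miR-1 at 72 against 60 h (1.50, 1.39 and 1.73) and rno-miR-1 at 72 against 36 h (2.79, 1.27 and 2.94). With snoRNA202 and the global mean, 60 against 36 h was called for rno-miR-1 (1.81 and 1.73) and miR-133a (1.79 and 1.71), and with the global mean 72 against 60 h for rno-miR-1 (1.21). miR-206 at 36 h was 1.59 and called with snoRNA202 and -0.29 with the global mean.

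Leaving out 1 array gave 0.72 to 1.05 for mmu-miR-1 and 0.93 to 1.05 for miR-133a at 72 against 60 h, the only member comparisons in which it changed a call; the within-array tests stayed below 0.05 (largest exact permutation p 0.0192). Counts moved with the normalizer, whose own level shifts between groups. With U6, 120 assays were higher and 33 lower at 36 h, 70 and 91 at 60 h, and 51 and 112 at 72 h. With snoRNA202 the lower count was 6 at 36 h, and 179 were higher and 20 lower at 60 h and 166 and 24 at 72 h; at 36 h the global mean gave 59 higher and 89 lower. The muscle-enriched list had 2 higher at 36 h with the global mean, not 4. Of its 16 tested assays, the differentiation list had 14 higher and 0 lower at 36 h with snoRNA202 (5 higher with the global mean). With snoRNA202 it had 2 lower at 60 h, and 10 higher and 2 lower at 72 h. These counts are to be read beside those of all assays with the same normalizer.

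With the replicate number as a block, no member's call changed; miR-133a at 72 against 60 h was 1.01. Every member Ct lay below 32, the highest being 31.37 for mmu-miR-1 at 0 h. Detection limits of Ct 32 and 40 could therefore drop no member value, and that no member's call changed with them is no test of the calls.

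Other normalizers for list sums were added after seeing the data. Relative to 0 h they turned the leukocyte (1.12 at 60 h, 0.86 at 72 h), endothelial (0.63, 1.10) and epithelial (0.72, 0.087) sums with snoRNA202. With the global mean they turned the 36 h sums of the muscle-enriched (-0.28), mesenchymal (-0.85) and epithelial (-0.83) lists. Leaving out 1 array gave 0.44 to 0.96 (36 h), -1.11 to -0.59 (60 h) and -0.59 to -0.07 (72 h) for the mouse minus rat difference of miR-1 against 0 h.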
